A study of Mus musculus with 21 samples.

Results

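The neuronal intermediate filament genes are the 5 genes whose products build the neuron-type filaments of axons and cell bodies. They are Nefl, Nefm and Nefh, which encode the light, medium and heavy neurofilament chains, Ina, which encodes alpha-internexin, and Prph, which encodes peripherin. They were taken by symbol from the 48474 rows of the deposited count table, and all 5 were found and passed the filter on low counts that left 18248 genes for testing. The question was how their transcripts differed between rNLS8 mice and controls in the neocortex.

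RNAseq counts were available for 21 mice from independent cohorts called A and B. The rNLS8 group (genotype TG, n = 10, with 3 mice in cohort A and 7 in cohort B) carries a tTA driver under the neurofilament heavy chain promoter together with a tetO-controlled human TDP-43ΔNLS transgene, a TDP-43 that lacks its nuclear localization signal. Expression from this promoter is almost exclusively neuronal. The control group (genotype WT in the labels, n = 11, with 4 and 7 mice) is described in the design as littermates with only 1 of these transgenes, on the same C57BL/6J background. Every mouse of both groups received, at 17 to 19 weeks of age, a single ventricular injection of non-targeting antisense oligonucleotide (350 µg, 10 µL). Doxycycline at 200 mg/kg of diet kept the transgene off until it was withdrawn from both groups 2 weeks later, and tissue was taken 3 weeks after withdrawal. There were no uninjected mice, and the sex of the mice is not given.

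Neurofilaments are obligate heteropolymers, in which the light chain forms the core with alpha-internexin and the longer medium and heavy chains, whose phosphorylated tails project from the filament. Their abundance sets the calibre of large axons, and the light chain released from damaged axons is measured in blood and cerebrospinal fluid as a marker of neurodegeneration. Peripherin belongs to a different filament class and is found mainly in peripheral neurons and in central neurons that project out of the brain and spinal cord. TDP-43 is an RNA-binding protein that prefers UG-rich stretches, and it is known to bind human neurofilament light chain mRNA.

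Total counts per mouse were between 20700912 and 22263809, with control and rNLS8 mice covering nearly the same range. The mouse Tardbp row, into which reads of the human transgene may or may not have been counted, had 2574 ± 207 normalized counts (SD, n = 11) in control and 4109 ± 951 (SD, n = 10) in rNLS8 mice, and 9 of 10 rNLS8 mice were above every control. The exception was T61340 of cohort A at 2363 normalized counts, and the other rNLS8 mice of cohort A, at 2903 and 3091, were below the 4405 to 5053 of cohort B. T61340 and T60303 had stood apart from the other rNLS8 mice in earlier work on these data, so fold changes, ratios, shares and correlations are also given without them. Glutamatergic neocortical markers were present in every mouse, with Slc17a7 between 24030 and 44355 normalized counts. Markers of striatum summed to between 71.5 and 605 CPM, which are counts relative to the total of a library, and markers of choroid plexus to between 15.1 and 2166 CPM, with overlapping ranges in both groups. Their part in the results on the filament genes was not tested.

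Positions are given for GRCm38 with GENCODE M21 models. Nefl lies on chromosome 14 from 68083863 to 68089095 on the plus strand, with 4 exons and 3380 bases of spliced RNA. Nefm lies next to it on the minus strand of chromosome 14, from 68082590 to 68124846 when all its isoforms are included. The main isoform Nefm-201 has 3334 bases and shares no exon with Nefl, but the long isoform Nefm-202 shares 1108 exonic bases with Nefl on the opposite strand. Nefh lies on chromosome 11 from 4938754 to 4948064 (minus strand, 3994 bases), Ina on chromosome 19 from 47014698 to 47025327 (plus strand, 3240 bases), and Prph on chromosome 15 from 99055174 to 99058978 (plus strand, 1863 bases). An isoform of Nt5c2 shares 456 exonic bases with Ina on the opposite strand. Whether reads were counted by strand is not given in the sources used here, so reads from these shared stretches cannot be assigned to one gene with certainty.

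Since TDP-43 prefers UG repeats, the spliced transcripts were searched for TGTGTG on the sense strand. Nefl and Nefm each held 1 copy, both in the 3′UTR, and the main transcripts of Nefh, Ina and Prph held none. These 24-base windows show both copies in capitals.
Nefl, chr14:68089046-68089069, plus strand: attcaatccTGTGTGccataataa
Nefm, chr14:68119524-68119547, minus strand: taagccaaaTGTGTGgtgatgtgt
The same 6 letters were found in 68.0% of the longest transcripts of 21877 protein-coding genes, so a single copy is common. A match to these letters describes the sequence and is not evidence of binding.

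The transcripts of the chains did not move together. Nefl, the core subunit, was reduced to less than 50% of its control level, Nefm and Nefh, which encode the side-arm chains, were modestly reduced, Ina was raised, and Prph did not pass the test. Of the 5 genes, 4 were past the threshold of an adjusted p-value of 0.05 in edgeR's quasi-likelihood test, which included cohort, 3 of them lower and 1 higher in rNLS8 mice. The background is high, since 44.7% of all tested genes were past this threshold (21.7% lower and 23% higher), and the count of members alone therefore says little. Ranges of control and rNLS8 mice did not overlap for 2 of the 5 genes, Nefl and Ina, against 7.65% of all tested genes. In bulk tissue, fewer cells of a type and less RNA per cell cannot be told apart, and this holds for each difference given here.

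**Figure D1:**
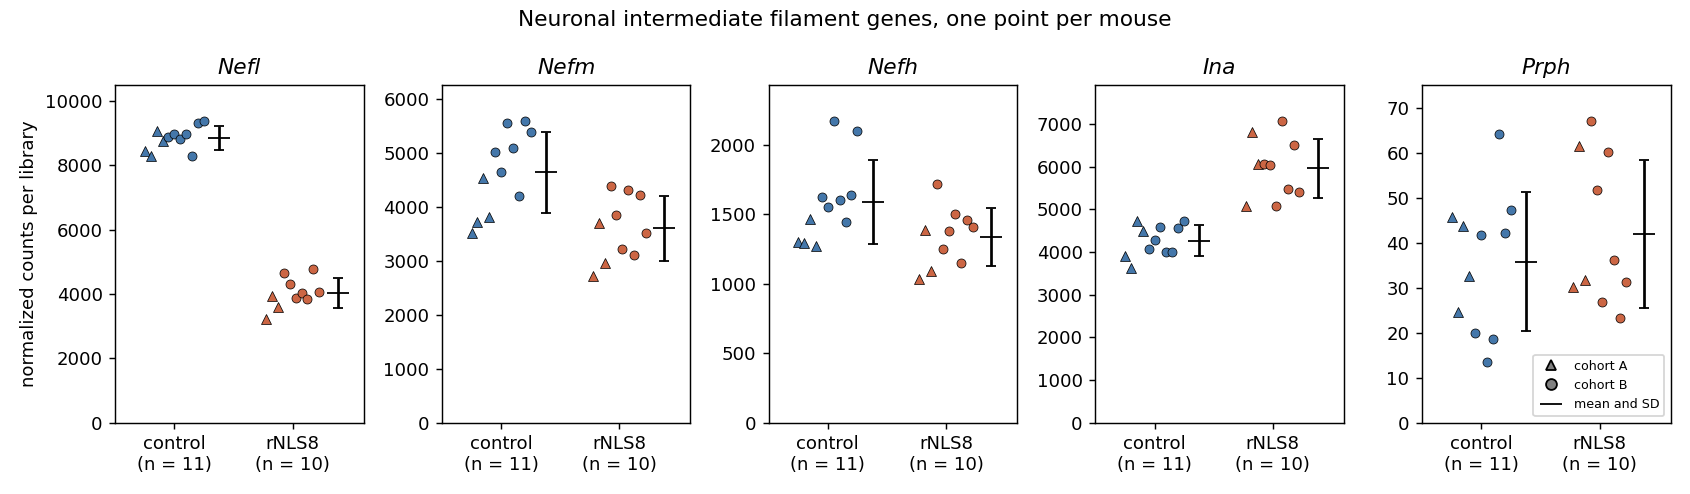
Normalized counts of the 5 genes (vertical axes, each starting at 0) in 11 control and 10 rNLS8 mice, 1 point per mouse, with triangles for cohort A, circles for cohort B, and crosses with bars for the mean and SD. Nefl and Ina separate the groups in opposite directions, Nefm and Nefh are shifted down with overlap, and Prph overlaps throughout.

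Nefl, without which neurofilaments do not assemble, had a lowest value of 8281, a median of 8871 and a highest value of 9373 normalized counts in control mice, and 3215, 3978 and 4775 in rNLS8 mice. The highest rNLS8 mouse, T_70263, was far below the lowest control, T_70260, so the groups were fully separate. The means were 8836 ± 371 (SD, n = 11) and 4028 ± 467 (SD, n = 10), with -1.15 ± 0.049 as the log2 fold change and its standard error (adjusted p = 1.70e-14), which left 45.2% of the control level. The spread between control mice was only 4.20% of their mean, against 11.6% in rNLS8 mice. Among all 18248 tested genes, 54 had a lower fold change than Nefl, and among the 477 genes with at least its mean level only 1 did. The lowest rNLS8 value belonged to T60303, and without this mouse the fold change was -1.12.

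Nefl was reduced in both cohorts. In cohort A, control mice had 8645 ± 346 and rNLS8 mice 3575 ± 355 normalized counts, a log2 fold change of -1.25 (adjusted p = 1.33e-04) where 11.8% of genes were past the threshold. In cohort B the means were 8944 ± 362 and 4222 ± 373, a log2 fold change of -1.09 (adjusted p = 5.64e-11) where 39.1% of genes were past it. The test of the interaction between genotype and cohort gave an unadjusted p of 0.0627 and an adjusted p of 0.875. None of the 18248 genes passed this test after adjustment. The rNLS8 mouse T61340, whose Tardbp level was within the control range, had 3924 normalized counts of Nefl, close to the median of its group.

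Nefm encodes the medium chain, whose tail carries phosphorylation sites that space neighbouring filaments. Its values were 3505, 4641 and 5587 normalized counts (lowest, median and highest) in control mice and 2709, 3611 and 4386 in rNLS8 mice. All 10 rNLS8 mice were below the control median, but only 4 were below every control. The median pools both cohorts, and every control of cohort A, at most 4525 normalized counts, was also below it. On the log2 scale the difference was -0.38 (standard error 0.073, adjusted p = 1.44e-04), or 76.7% of the control level. In cohort B alone it was -0.42 (adjusted p = 4.47e-04), and in cohort A alone it was -0.29 and missed the threshold (adjusted p = 0.189). The cohorts themselves differed in level, with 3889 ± 443 normalized counts in control mice of cohort A and 5066 ± 510 in those of cohort B.

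Nefh encodes the heavy chain, the longest subunit, and its promoter in transgenic form drives the tTA of rNLS8 mice. It had 1273, 1555 and 2169 normalized counts (lowest, median and highest) in control mice and 1034, 1384 and 1714 in rNLS8 mice. The groups overlapped over much of this range, with 9 of 10 rNLS8 mice below the control median. That median pools cohorts of different level, with control means of 1331 in cohort A and 1732 in cohort B. Every control of cohort A, at most 1464 normalized counts, was also below it. With cohort in the fit, the difference between the groups was -0.26 on the log2 scale (adjusted p = 0.00775, standard error 0.077), or 83.4% of the control level. It was -0.31 in cohort B alone (adjusted p = 0.0162) and -0.16 in cohort A alone, where it missed the threshold (adjusted p = 0.439). The highest controls, T_69532 and T_70264 at 2169 and 2099 normalized counts, were both from cohort B.

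Ina encodes alpha-internexin, which joins the light, medium and heavy chains in filaments of the central nervous system. Its values ran the other way, with 3633, 4288 and 4730 normalized counts (lowest, median and highest) in control mice and 5078, 6045 and 7071 in rNLS8 mice. Each of the 10 rNLS8 mice was above every control, although the gap between the highest control, T61334, and the lowest rNLS8 mouse, T60303, was small. The means of 4269 ± 371 (SD, n = 11) and 5961 ± 698 (SD, n = 10) differed by 0.48 on the log2 scale (adjusted p = 1.11e-06, standard error 0.063), or 140% of the control level. The rise was past the threshold in cohort A (0.54, adjusted p = 0.0249) and in cohort B (0.45, adjusted p = 2.77e-05). Only 16 of the 705 genes with at least the mean level of Ina had a higher fold change. Nt5c2, the gene that overlaps Ina on the opposite strand, had a log2 fold change of -0.11 (adjusted p = 0.0371), opposite in sign.

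Prph was barely detected in this tissue. Control mice had 13.5, 41.7 and 64.3 normalized counts (lowest, median and highest) and rNLS8 mice had 23.2, 33.9 and 67.1. High and low mice occurred in both groups and the ranges overlapped almost fully. Its difference of 0.23 on the log2 scale (adjusted p = 0.476, standard error 0.245) had an approximate 95% interval from -0.25 to 0.71, so a change of the size seen for Nefl lies outside it while one of the size seen for Ina does not. With single mice left out it ranged from 0.13 (without T61340 or T_69524) to 0.36 (without T_70260) and did not pass in any of these fits. Among genes of peripherin-rich neurons outside the neocortex, Chat was between 7.44 and 121 and Th was between 18.1 and 313 normalized counts in control mice. Of 7 tested genes of that list (median log2 fold change -0.28), Avil, an actin-binding protein of peripheral sensory neurons, rose from 4.13 to 35.5 normalized counts (log2 fold change 3.08, adjusted p = 2.95e-08), Tph2, the serotonin synthesis enzyme, fell by 0.99 on the log2 scale (adjusted p = 6.82e-05), and the other 5 did not pass.

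**Figure D2:**
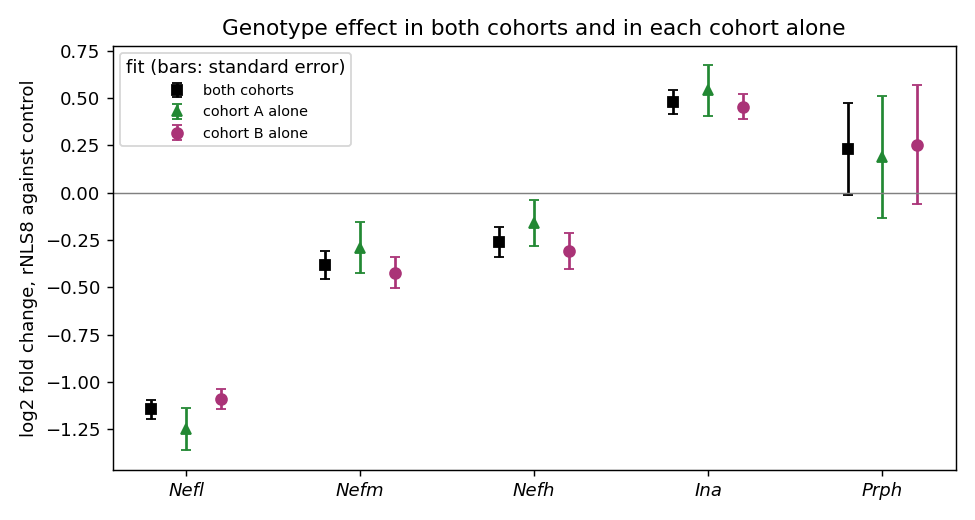
Log2 fold change of rNLS8 against control mice (vertical axis) for each gene in the fit of both cohorts (squares), cohort A alone (triangles) and cohort B alone (circles), with bars for the standard error. All 5 genes have the same sign in each fit, and the bars of Nefm and Nefh are nearer to 0 in cohort A.

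The promoters of the gene that rose and of the low gene that did not pass were the only ones of the 5 found in the RefSeq table for GRCm38.p6. They are shown as windows of 300 bases around the annotated start, with TATAAA and GGGCGG or its complement CCGCCC in capitals, searched on both strands.
Ina, chr19:47014431-47014730, plus strand: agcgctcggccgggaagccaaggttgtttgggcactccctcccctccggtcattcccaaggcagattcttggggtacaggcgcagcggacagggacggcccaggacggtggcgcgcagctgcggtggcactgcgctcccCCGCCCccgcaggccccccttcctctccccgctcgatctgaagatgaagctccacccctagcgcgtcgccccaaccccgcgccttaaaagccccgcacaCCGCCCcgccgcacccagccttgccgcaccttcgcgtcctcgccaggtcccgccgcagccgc
Prph, chr15:99054924-99055223, plus strand: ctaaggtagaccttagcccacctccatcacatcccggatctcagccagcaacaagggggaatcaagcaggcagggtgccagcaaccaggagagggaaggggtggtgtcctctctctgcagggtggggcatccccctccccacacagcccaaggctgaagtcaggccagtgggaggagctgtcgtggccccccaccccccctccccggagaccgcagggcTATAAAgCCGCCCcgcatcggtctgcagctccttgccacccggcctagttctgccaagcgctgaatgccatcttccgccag
The Ina window was 71.7% GC with 2 copies of the GC box and no TATAAA, whereas the Prph window was 64.7% GC with 1 GC box and 1 TATAAA whose first base is at -31 from the start. A GC box was present in 35.7% and TATAAA in 13.6% of 32851 promoter windows of this length. The cyclic AMP response element TGACGTCA, found in 1.79% of windows, was in neither.

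Levels were compared between genes as CPM per kilobase of spliced transcript. In control mice the order was Nefl at 122 ± 5.14, Nefm at 65.2 ± 10.6, Ina at 61.7 ± 5.37, Nefh at 18.6 ± 3.54 and Prph at 0.901 ± 0.387 CPM per kilobase (mean ± SD, n = 11). Nefm and Ina, the neighbours in the middle of this order, overlapped within 1 SD. In rNLS8 mice the order changed to Ina at 86.2 ± 10.1, Nefl at 55.8 ± 6.48, Nefm at 50.5 ± 8.34, Nefh at 15.7 ± 2.44 and Prph at 1.06 ± 0.412 CPM per kilobase (mean ± SD, n = 10). Here Nefl and Nefm overlapped within 1 SD, and Ina was the most abundant of the 5 transcripts per length.

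The summed level of the 4 central chains Nefl, Nefm, Nefh and Ina was 268 ± 21.8 CPM per kilobase in control and 208 ± 23.9 in rNLS8 mice, with ranges of 235 to 298 and 168 to 237 that overlapped slightly. Within this sum, the share of Nefl was 45.9% ± 2.22 in control mice (lowest 41.8%, highest 49.2%) and 26.9% ± 1.65 in rNLS8 mice (23.7% to 28.4%). The share of Ina was 23.1% ± 1.26 (21.2% to 25.5%) and 41.5% ± 2.75 (37.4% to 45.8%). Thus the shares of both genes were fully separate between the groups. The share of Nefm was 24.2% ± 2.23 and 24.2% ± 1.45, and that of Nefh was 6.90% ± 0.850 and 7.52% ± 0.704, with overlapping ranges. Without T61340 and T60303, the Nefl and Ina shares of rNLS8 mice were 27.2% ± 1.62 and 40.8% ± 2.69 (SD, n = 8). These are shares of transcripts per length and not of protein.

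**Figure D3:**
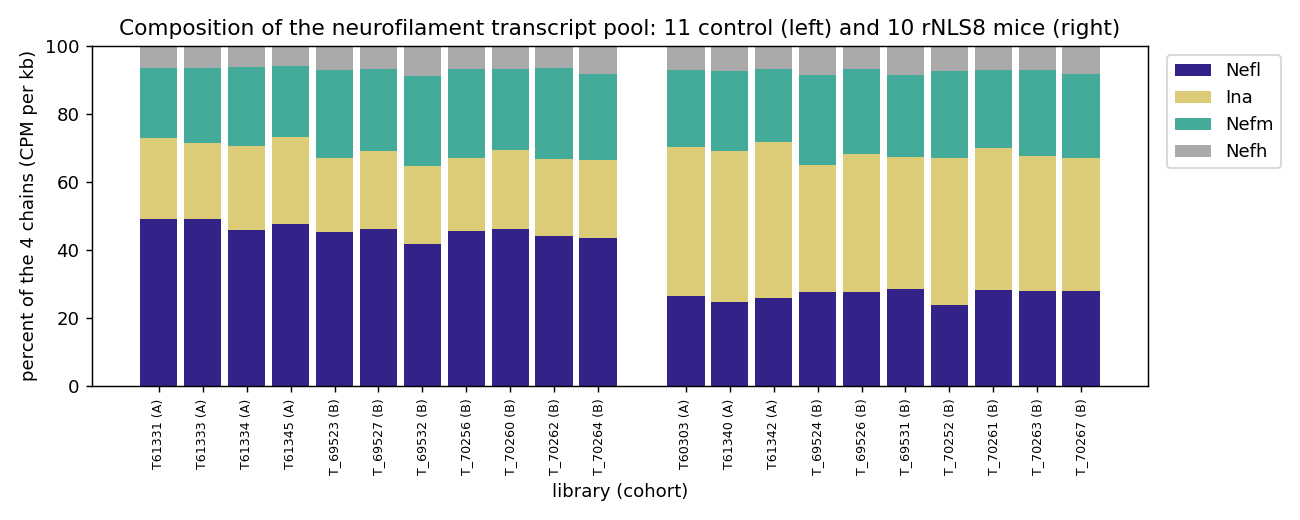
Share of each chain in the summed CPM per kilobase of Nefl, Ina, Nefm and Nefh (vertical axis, percent) in each library, control mice on the left and rNLS8 mice on the right, with the cohort in brackets. The Nefl share is at least 41.8% in each control and at most 28.4% in each rNLS8 mouse, and the Ina share is at most 25.5% in each control and at least 37.4% in each rNLS8 mouse.

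A ratio of 2 genes within a library does not depend on how libraries are scaled. All 6 pairs among the 4 central chains were tested by permuting the genotype within cohort over all 120120 relabellings (exact, two-sided, adjusted over the 6 pairs). The log2 ratio of Ina to Nefl was -1.05 ± 0.089 (SD, n = 11) in control and 0.57 ± 0.17 (SD, n = 10) in rNLS8 mice. The gap of 1.62 had p = 8.33e-06, the smallest these relabellings can give, and an adjusted p of 1.25e-05. Control mice lay between -1.19 and -0.94 and rNLS8 mice between 0.38 and 0.81, so Ina counts exceeded Nefl counts in every rNLS8 mouse and in no control.

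The ratios of Nefm and of Nefh to Nefl were higher in rNLS8 mice by 0.77 and 0.90, each at the same smallest p, so the fall of Nefl was larger than that of either side-arm chain. Ina was higher relative to Nefm by 0.84 (adjusted p = 1.25e-05) and relative to Nefh by 0.72 (adjusted p = 2.00e-05, exact permutation test). For Ina to Nefh the groups did not overlap, but the highest control and the lowest rNLS8 mouse were both at 1.82. Between the side-arm chains, the ratio of Nefh to Nefm was higher by 0.13 (adjusted p = 0.0322) with largely overlapping groups, and it missed the threshold in each cohort alone (0.127 with adjusted p = 0.0857 in cohort A, 0.128 with adjusted p = 0.132 in cohort B, exact permutation tests). It also missed the threshold when T_69523, T_70256, T_70262, T_69524, T_69531 or T_70267 was left out, with differences between 0.104 and 0.119. Without both T61340 and T60303 it was 0.121 (adjusted p = 0.0632, exact permutation test), and the other 5 ratios differed by 0.68 to 1.58, each with an adjusted p of 6.99e-05. Within cohort A, where the smallest p of 35 relabellings is 0.0286, and within cohort B, the other 5 ratios kept their direction and an adjusted p of at most 0.0343.

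**Figure D4:**
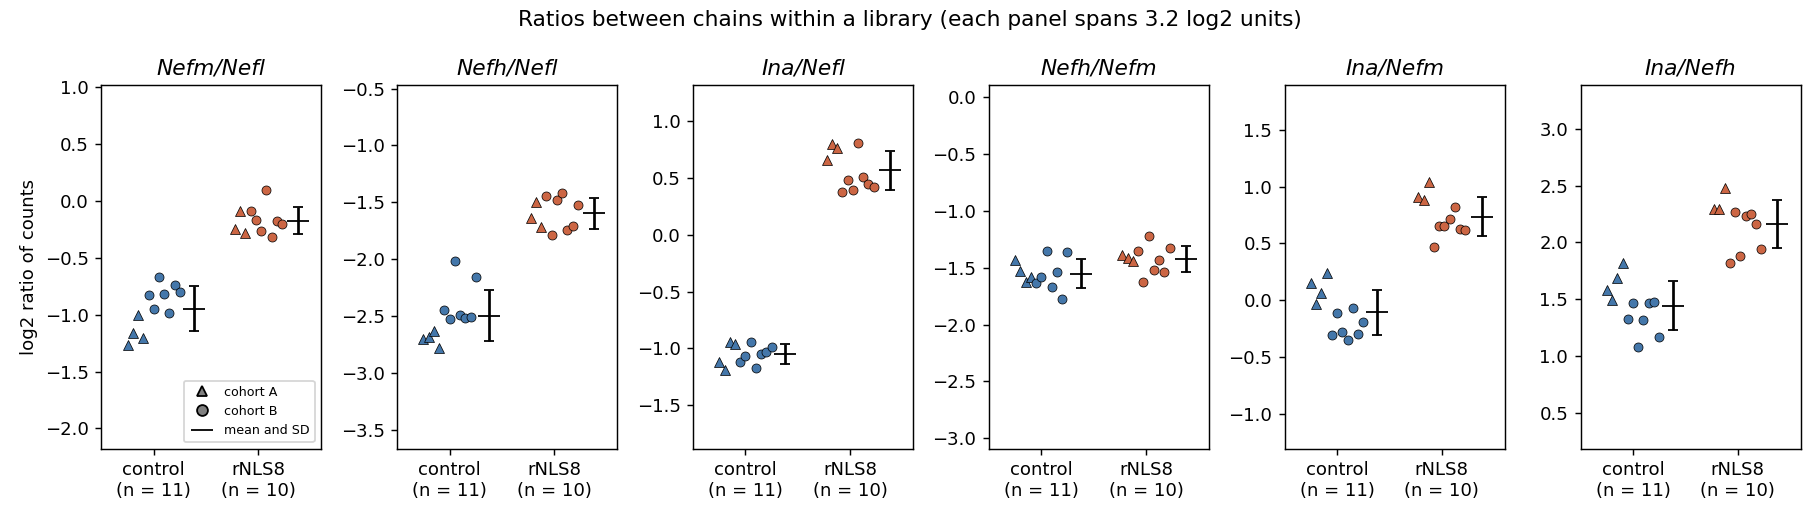
Log2 ratio of counts for the 6 pairs of chains (vertical axes, each spanning the same width) in 11 control and 10 rNLS8 mice, with triangles for cohort A, circles for cohort B and crosses with bars for the mean and SD. The groups are widely apart for Ina to Nefl, by 1.62 on the log2 scale, and largely overlap for Nefh to Nefm.

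Next, it was asked whether the genes still varied together from mouse to mouse once genotype and cohort had been removed from log2 CPM. These correlations are across 21 mice, over 10 pairs, and the mice share their depth range and the dissection. Nefm and Ina, which differed in opposite directions between genotypes, had the highest correlation (Pearson r = 0.82, permutation p = 1.0e-05, the smallest these permutations can give, adjusted p = 1.0e-04; Spearman rho = 0.80, permutation p = 2.0e-05, adjusted p = 2.0e-04). Nefm and Nefh followed (r = 0.77, p = 3.0e-05, adjusted p = 1.5e-04; rho = 0.72, p = 3.9e-04, adjusted p = 0.00195 by permutation). Without the 2 mice farthest from the median of Nefm, these values of r were 0.80 and 0.68, and they were 0.85 and 0.94 within cohort A and 0.81 and 0.72 within cohort B. Pairs of other genes were not tested in this way, so these values have no background. Single genes outside the set reached r = 0.91 with Ina and 0.89 with Nefm.

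Nefl correlated with Nefm (r = 0.65, permutation p = 0.00120, adjusted p = 0.00400; rho = 0.63, p = 0.00300, adjusted p = 0.0100), with r = 0.61 without the 2 mice farthest from the median of Nefl, 0.59 in cohort A and 0.69 in cohort B. It correlated less with Ina (r = 0.56, permutation p = 0.00759, adjusted p = 0.0152; rho = 0.51, p = 0.0185, adjusted p = 0.0371) and did not pass with Nefh (r = 0.45, permutation p = 0.0426, adjusted p = 0.0710; rho = 0.41, p = 0.0646, adjusted p = 0.108). Nefh and Ina gave r = 0.59 (permutation p = 0.00475, adjusted p = 0.0119; rho = 0.59, p = 0.00571, adjusted p = 0.0143). Without the 2 farthest mice, r was 0.59 for Nefl and Ina, 0.38 for Nefl and Nefh and 0.56 for Nefh and Ina. Within cohorts A and B, r was 0.68 and 0.49 for Nefl and Ina and 0.76 and 0.54 for Nefh and Ina. None of the 4 pairs with Prph passed, with r between 0.04 and 0.34. Without T61340 and T60303, r was 0.78 for Nefm and Ina, 0.72 for Nefm and Nefh, 0.65 for Nefl and Nefm, 0.51 for Nefh and Ina and 0.48 for Nefl and Ina.

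By the same residuals over 21 mice, the genes most like each member among 14580 searched were found, as a description. For Nefl these were Cacybp (r = 0.87), Dnaja1, a co-chaperone of Hsp70 (r = 0.83), and Gm7816 (r = 0.82). For Nefm they were Stip1, a co-chaperone that links Hsp70 and Hsp90 (r = 0.89), Tceal3 (r = 0.87) and Chgb, a granin of dense-core vesicles (r = 0.86). The nearest to Ina were Abcf2, the splicing factor gene Prpf19 and Snap47, each at r = 0.91, and the nearest to Nefh were Pmvk (r = 0.80), Timm17a (r = 0.76) and Itfg2 (r = 0.75). Prph, at its low counts, had Gm9385 (r = 0.77), Shf (r = 0.71) and Frg2f1 (r = 0.68). Among these genes, Stip1 had a log2 fold change of 0.19 (adjusted p = 0.0158) and Nefm one of -0.38, while Dnaja1 fell by 0.55 (adjusted p = 3.99e-09).

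The other intermediate filaments were set beside them. Of 11 measured genes, 5 rose, 1 fell and 5 did not pass, with a median log2 fold change of 0.18 where the median of all genes was 0.00. Gfap, the filament of reactive astrocytes, rose from 3323 to 6697 normalized counts (log2 fold change 1.03, standard error 0.11), and Vim, the vimentin gene, rose from 720 to 1122 (0.64, standard error 0.090). The lamin genes Lmna, Lmnb1 and Lmnb2, whose products line the nucleus, rose by 0.31, 0.32 and 0.18. Synm, the synemin gene, fell by 0.20, and Nes, the nestin gene of progenitors, had 320 and 324 normalized counts in the 2 groups.

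Other genes of the axonal cytoskeleton and of neurons are given as counts, beside the 21.7% of all tested genes that fell and the 23% that rose, and no test compared a list with other genes. Of 19 tubulin, microtubule-associated, spectrin and ankyrin genes, 11 fell, 2 rose and 6 did not pass, with a median log2 fold change of -0.17. The tubulin genes Tuba4a and Tuba1a fell by 0.56 and 0.37, and Map2, a microtubule-associated protein of dendrites, fell by 0.44. Sptan1, which encodes alpha-II spectrin, and Map6 rose by 0.21 and 0.14.

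Among 9 genes for kinases and phosphatases that act on neurofilament tails, 4 fell, 2 rose and 3 did not pass, with a median log2 fold change of -0.13. Cdk5r1, the p35 activator of Cdk5, fell from 6768 to 4298 normalized counts (log2 fold change -0.65, standard error 0.048), whereas Cdk5 itself had 1749 and 1875 normalized counts and did not pass. Ppp2ca, the catalytic subunit of protein phosphatase PP2A, fell by 0.30, while Gsk3a rose by 0.27. Of 6 linkers and motors (median 0.11), 1 rose and 1 fell. Plec, whose product plectin ties filaments to other structures, rose by 0.49 and Myo5a, a motor that binds the light chain, fell by 0.25. Kif5a, the kinesin of neurofilament transport, had a log2 fold change of 0.13 and was not past the threshold. Of 4 genes for filament turnover (median 0.02) only Capn2, a calpain, passed, with a rise of 0.19.

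Of 13 genes of the axon injury response, 11 were tested, of which 2 rose, 5 fell and 4 did not pass (median log2 fold change -0.23). Atf3, a transcription factor induced by axotomy, rose from 18.3 to 117 normalized counts (log2 fold change 2.63, standard error 0.23), and Klf6 rose by 0.40. Jun, the usual partner of Atf3 after injury, fell from 1095 to 728 normalized counts (-0.58, standard error 0.060). The growth-associated genes Gap43 and Basp1 fell by 0.38 and 0.36 and Npy, the neuropeptide Y gene, fell by 0.58. The list thus held members in both directions.

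Of 8 pan-neuronal genes, 4 fell, 1 rose and 3 did not pass (median log2 fold change -0.32), and their summed level was between 8805 and 11024 CPM in control and between 6604 and 8345 CPM in rNLS8 mice, without overlap. The synaptic gene Snap25 fell by 0.75, Elavl4 by 0.75 and the kinase gene Camk2a by 0.65, while Thy1 rose by 0.44 and Rbfox3, which encodes NeuN, had 5825 and 5420 normalized counts and did not pass. Of 6 markers of layer 5 projection neurons, which are rich in neurofilament, 4 fell and none rose (median -0.45), with Pcp4 and Crym both at -0.66, Etv1 at -0.47 and Bcl11b at -0.43. Fezf2 and Ldb2 of the same layer did not pass (-0.02 and 0.07), and the summed ranges were 445 to 597 CPM in control and 254 to 501 CPM in rNLS8 mice. Among 5 markers of parvalbumin interneurons, which also carry neurofilament, Syt2 fell by 0.52 and Pvalb by 0.27, 3 did not pass (median -0.04), and the summed ranges were 304 to 349 and 268 to 340 CPM. The part of these markers in the difference of the filament genes was not tested.

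**Figure D5:**
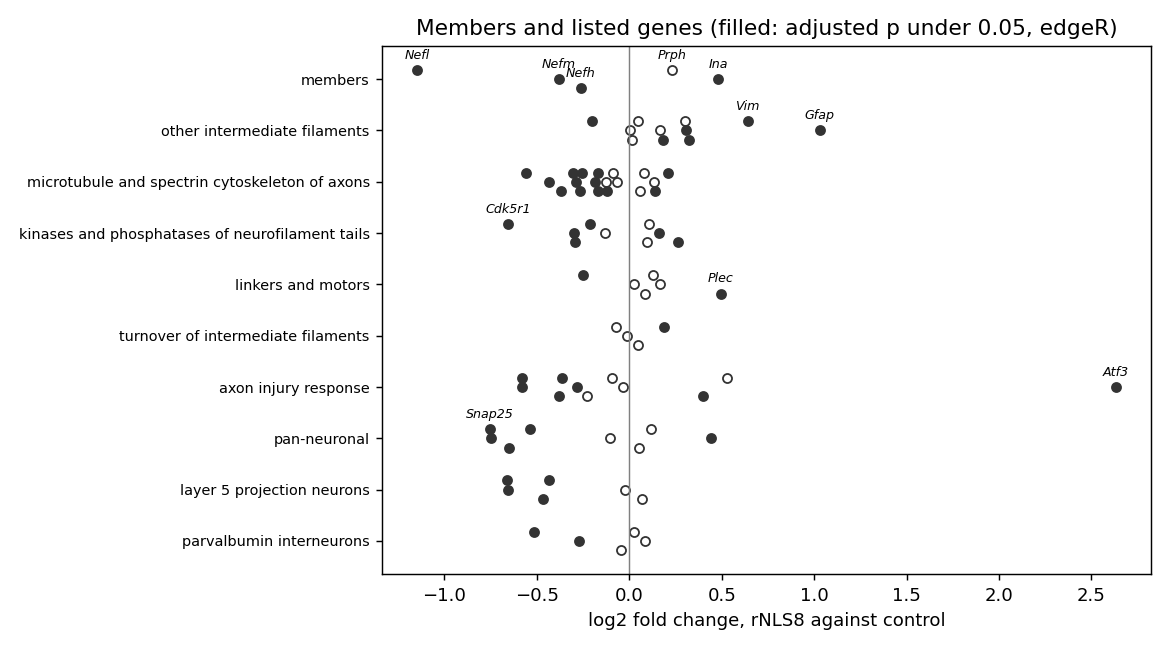
Log2 fold change of rNLS8 against control mice (horizontal axis) for the 5 members and for genes of 9 lists (rows), 1 circle per gene, filled where the adjusted p of edgeR's test was below the threshold; vertical offsets within a row only separate the circles. Nefl lies farther to the left than every other gene shown, at -1.15, while Atf3, Gfap, Vim, Plec and Ecel1 (not past the threshold) lie to the right of Ina.

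Glial markers were of mixed direction. None of 6 oligodendrocyte genes passed (median 0.07). Of the astrocyte genes 4 of 5 fell (median -0.18), with Gja1 and Aqp4 at -0.27 and -0.26, and of 6 microglial genes 4 rose (median 0.16), while P2ry12 fell by 0.35. Of the 4 endothelial genes only Flt1 fell, by 0.17, and no gene of choroid plexus or meninges passed. Of the regional markers, Drd1 of striatum was at -0.66, Spink8 of hippocampus at -1.08 and Neurod6 of neocortical excitatory neurons at -0.28, all past the threshold. In these lists 2 of 5 striatal and 1 of 3 tested hippocampal genes fell and none rose, and of 4 neocortical genes 1 fell and 1 rose. Without T61340 and T60303, Nefl was at -1.12, Nefm at -0.41, Nefh at -0.30 and Ina at 0.48, all still past the threshold, and Prph at 0.18 was not.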

How the data were processed

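Neocortex RNA (RIN above 7 per the methods) of 21 mice was made into mRNA libraries and sequenced as paired-end 100-base reads. The authors used GRCm38 for alignment, and the deposited values are raw counts, 1 row per gene symbol and 1 column per mouse. The submitters' processing notes name HISAT, HISAT2, Bowtie, Bowtie2 and RSEM, and the counting program, annotation and strand setting are not given in the sources used here. The authors' differential expression, by DESeq2, was not used.

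The analysis used edgeR 4.0.16 in R 4.3.3, with its filter by expression (minimum count 10, minimum total 15), TMM normalization, and the quasi-likelihood test with genotype and cohort, with Benjamini-Hochberg adjustment over all 18248 genes tested and a threshold of 0.05. Normalized counts were scaled to the mean of the TMM-adjusted library sizes. CPM per kilobase used the spliced length of the main transcript (GENCODE M21, GRCm38). Ratios and residual correlations used log2 values with a prior count of 2, and correlations were tested by 100000 permutations. Approximate 95% intervals are normal intervals from the standard error. The edgeR test of genotype, the edgeR interaction test and the DESeq2 test were tried on simulated data. The permutation tests of ratios and correlations were not.

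Each library is a separate mouse, so p-values reflect the spread between mice, and each library held at least 20700912 counts. Differences in dissection from mouse to mouse are part of that spread. Intervals do not cover a systematic difference in dissection between the groups. Genes named are the 5 members, for each list the 3 genes with the smallest adjusted p and genes whose role a sentence turned on, and for each member the 3 most like genes with a mean of at least 50 counts; some listed genes are not reported here. The members, lists and tests were chosen with earlier results of these data known. Alternatives were edgeR without cohort, DESeq2 1.42.0 (with cohort, and without it), library-size and upper-quartile scaling, other filters, each cohort alone, Xist as covariate, leaving out rows of further copies of a symbol, leaving out each mouse, a prior count of 0.5 and permutation over all mice for ratios, and, chosen after seeing the data, ratios centred within cohort and ratios, shares and correlations without both T61340 and T60303.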

Additional observations from a re-analysis of the deposited data

How the results depend on the processing

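Over 36 alternative settings, 380 of 393 values kept their direction and their side of the threshold, or for counts stayed within 1.5 times. Nefl was between -1.25 and -1.07 and Ina between 0.45 and 0.56 on the log2 scale, past the threshold in every alternative run. In cohort A alone (4 against 3 mice), Nefm at -0.29 (adjusted p = 0.189) and Nefh at -0.16 (adjusted p = 0.439) missed it, so that 2 members passed in place of 4, and 2195 genes passed in all, with fewer mice by construction. The ratio of Nefh to Nefm was 0.127 (adjusted p = 0.0857) in cohort A alone and 0.128 (adjusted p = 0.132) in cohort B alone. With each mouse left out in turn it was between 0.104 and 0.148, and missed the threshold without control T_69523, T_70256 or T_70262 or rNLS8 mouse T_69524, T_69531 or T_70267 (adjusted p up to 0.0645). Without both T61340 and T60303, an alternative chosen after seeing the data, it was 0.121 (adjusted p = 0.0632). The cause was not tested. With each mouse left out, Nefm was between -0.43 and -0.35 and Nefh between -0.31 and -0.22, all past the threshold. Scaling by library size only moved the median of all genes to 0.08, and in tests against 0 no member changed its call, with Nefh at -0.19 (adjusted p = 0.0491). No paired analysis was possible because the groups share no replicate numbers. Prph had under 70 normalized counts in each mouse, with an SD of 42.9% of the mean in control mice.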
